A study of Mus musculus with 4 samples.

Results

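Potassium channel subunits were followed as a gene group across single nuclei from mouse aortic tissue. The group was taken by gene symbol alone: every annotated gene whose symbol has the form Kcn, a letter code and a number, with antisense and overlapping transcripts left out. This gave 93 of 32285 annotated genes, and 6 further Kcn symbols fell outside the rule. By family, 30 encode pore subunits of voltage-gated channels, 10 modifier pore subunits, 15 inward rectifiers, 14 two-pore leak channels and 8 pore subunits opened by calcium or sodium. The remaining 16 encode auxiliary subunits.

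Potassium channels let potassium leave the cell and so set the resting membrane potential. In arterial smooth muscle this hyperpolarises the membrane, closes voltage-gated calcium channels and relaxes the vessel, and large-conductance channels opened by calcium act as a brake on contraction. In endothelium, channels opened by calcium spread hyperpolarisation to the muscle layer, and in macrophages potassium efflux through leak channels is a known trigger of the NLRP3 inflammasome.

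The study profiled aortic tissue of CA1 knockin ApoE-/- mice, which lack apolipoprotein E and carry an inserted CA1 gene (carbonic anhydrase I), so that every group shares both changes. There were 4 groups with 1 library each. The untreated group received nothing, the high-fat group ate high-fat food, and both MTZ groups ate high-fat food and received methoxazolamide, the name used in the labels for the agent that the series title calls MTZ, a CA1 inhibitor. In the MTZ-after group dosing began once atherosclerosis had been established, and in the MTZ-simultaneous group it ran together with the feeding. The sources used here give neither the promoter of the knockin nor the age and sex of the mice, the dose, or the number of animals per library. Values for the 4 libraries are given below in the order untreated, high-fat, MTZ-after, MTZ-simultaneous.

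The libraries held 22413, 38114, 28116 and 19335 nuclei with a median of 2026, 969, 827 and 1420 unique molecular identifiers (UMIs, counted molecules) per nucleus. Between 119 and 376 cell barcodes occurred in both libraries of a pair, at most 1.34% of a library. After filtering, nuclei were clustered without any Kcn gene and clusters were named from marker genes, so that a name such as endothelial-like is a reading of markers. Unnamed clusters held 25.4, 55.4, 20.1 and 23.5% of nuclei. The libraries differed in tissue. Adrenal cortex-like nuclei numbered 0, 0, 4028 and 1, chromaffin or neuron-like nuclei 4, 0, 1655 and 50, hepatocyte-like nuclei 0, 8, 948 and 58, mesothelial-like nuclei 1222, 70, 539 and 2559, and foamy macrophage-like nuclei 917, 6079, 806 and 987. Smooth muscle-like nuclei, the main cell of the aortic wall, numbered only 343, 93, 351 and 1007. With 1 library per group, differences below describe these libraries, and group and library cannot be told apart. Ranges in brackets are exact 95% intervals and cover counting error only.

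Counts for the potassium channel genes summed to 88147, 61987, 77512 and 74403, or 1364, 1347, 2649 and 2086 CPM, the usual scale of counts relative to the sum over all genes. At least 1 of these genes was detected in 82.8, 71.1, 81.2 and 85.1% of nuclei. Of the 93 genes, 67 reached 50 counts over the 4 libraries, 26 stayed below and 3 of those had no count (Kcns1, Kcnk16 and Kcnv1). By family, 50 counts were reached by 24 of 30 voltage-gated pore genes, 3 of 10 modifiers, 9 of 15 inward rectifiers, 11 of 14 leak channels, 8 of 8 calcium- or sodium-activated genes and 12 of 16 auxiliary genes. In all, 42 genes had 50 counts in the class where they were highest, and naming at most 6 per class, those furthest above the next class, left 36 of them. For 14 of these 36 the mean CPM over libraries was at least 2-fold that in the next class. Before that limit, chromaffin or neuron-like nuclei led for 12 of the 42 genes and adrenal cortex-like nuclei for 6.

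**Figure D1:**
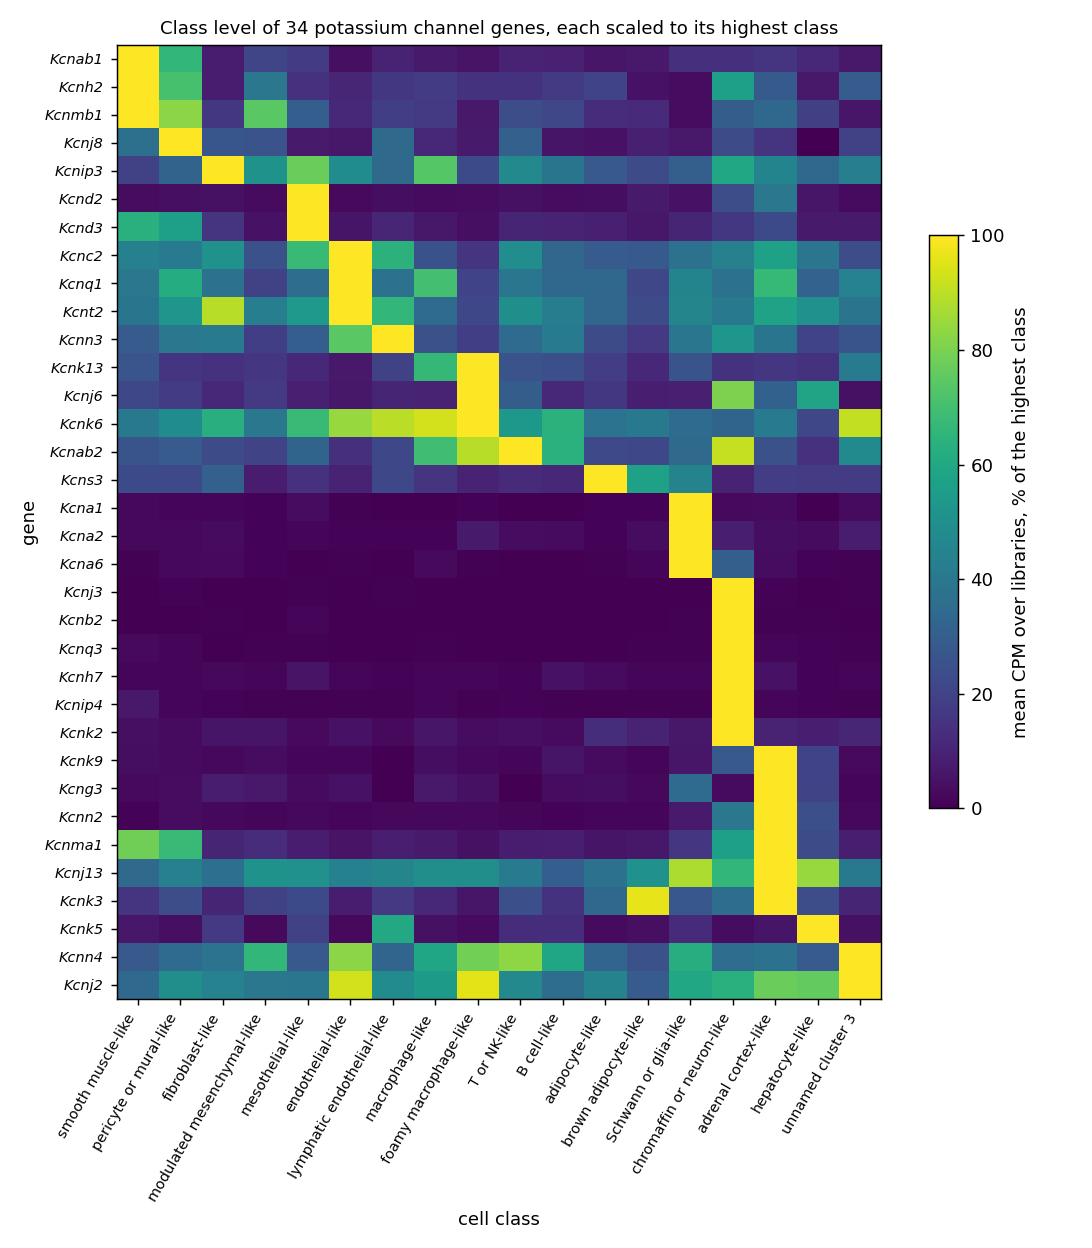
Mean CPM over libraries of 34 potassium channel genes (rows) in each cell class (columns), as % of the gene's highest class; libraries with at least 50 nuclei of the class entered the mean, blank cells have no such library, and of the unnamed clusters the one that leads for a gene is drawn. Most drawn genes led by chromaffin or neuron-like and Schwann or glia-like nuclei stand far above the next class (Kcnj3 108-fold, Kcna1 31.2-fold, but Kcna6 3.32-fold), while smooth muscle-like and mural-like columns share theirs. At most 6 genes per class were kept, those furthest above the next class, and the chromaffin-led genes left out stood 1.08- to 5.77-fold above it. The mean weighs libraries equally, with 1655 and 50 chromaffin or neuron-like nuclei in MTZ-after and MTZ-simultaneous.

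Among voltage-gated pore subunits, the Shaker genes Kcna1, Kcna2 and Kcna6, known from myelinated axons, were highest in Schwann or glia-like nuclei. Kcna1 stood at 123, 44.4, 44.4 and 74.3 CPM there, from 89, 6, 28 and 7 counts, and it had no count in T or NK-like nuclei of any library. The untreated library was the highest of the 4 for Kcna1, and the high-fat and MTZ-after libraries were the lowest. Kcna2 stood at 74.6, 66.6, 50.7 and 138 CPM in the same nuclei, from 54, 9, 32 and 13 counts. The smooth muscle gene Kcna5, a delayed rectifier of arteries, was nearly absent with 0, 0, 0 and 2 counts in smooth muscle-like nuclei. Kcna3, the lymphocyte channel, gave 6, 5, 6 and 3 counts over all nuclei, too few for any comparison.

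Kcnc2, a fast voltage-gated channel better known from interneurons, had its highest level in endothelial-like nuclei. It stood there at 115 (108-122), 53.2 (43.1-65.0), 124 (113-136) and 114 (106-123) CPM, so that the high-fat library was low and the other libraries lay close together. T or NK-like nuclei, which should lack it, held 44.7, 52.6, 62.2 and 38.9 CPM, so the high-fat endothelial level lay close to that of the lymphocytes. Kcnq1, whose product carries a slowly activating current with Kcne1, was also led by endothelial-like nuclei at 84.3, 79.8, 50.3 and 71.1 CPM. The endothelial-like levels of the high-fat library came from 868 nuclei, and other clusterings gave this name to 4757 to 5743 nuclei of that library.

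Kcnd2 and Kcnd3 encode A-type channels that inactivate quickly. Both were highest in mesothelial-like nuclei, the covering of the outer surface. Kcnd2 stood at 1171 (1136-1208), 462 (327-634), 419 (369-475) and 821 (795-848) CPM. The untreated library was highest, and the high-fat and MTZ-after intervals overlapped. Kcnd3 was level across libraries in the same nuclei at 177, 146, 147 and 190 (177-203) CPM. Of mesothelial-like nuclei, 48.2, 25.7, 27.1 and 45.1% had a Kcnd2 UMI, against 4.18, 0.833, 3.77 and 5.78% of T or NK-like nuclei. After thinning each nucleus to 500 UMIs the mesothelial shares were 27.2, 11.4, 15.2 and 25%.

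The Kcnq family supplies the M-type current, and Kcnq5 acts in arterial muscle. Kcnq5 stood at 1654 CPM in untreated mural-like nuclei (pericytes and related cells of the vessel wall) against 202, 307 and 312 CPM in the other libraries. In smooth muscle-like nuclei it stood at 573, 390.1, 588 and 266 CPM, so the large gap of the untreated library was in the mural-like nuclei. B cell-like nuclei also carried it, at 715, 344, 385 and 436 CPM, and chromaffin or neuron-like nuclei at 481 and 2366 CPM in MTZ-after and MTZ-simultaneous. Kcnh2, the rapid delayed rectifier of the heart, was led by smooth muscle-like nuclei with 18, 3, 12 and 85 counts, or 21.6, 16.0, 20.5 and 31.8 CPM, whose intervals overlapped.

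Neuronal members of these families marked chromaffin or neuron-like nuclei of the MTZ-after and MTZ-simultaneous libraries, the only ones with enough such nuclei. Kcnb2 stood at 125 and 995 CPM, Kcnq3 at 406 and 2075 CPM and Kcnh7 at 202 and 166 CPM. Kcnb2 and Kcnq3 were higher in the 50 MTZ-simultaneous nuclei than in the 1655 MTZ-after nuclei, while the Kcnh7 intervals overlapped. The clusters behind the class differed: 42.0% of the MTZ-simultaneous nuclei came from a second cluster that supplied 5.32% in MTZ-after. Among the modifiers, which form no channel alone, Kcns3 was led by adipocyte-like nuclei at 44.5, 29.8, 37.4 and 45.5 CPM. Kcng3 was seen in adrenal cortex-like nuclei of the MTZ-after library at 15.1 CPM.

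Inward rectifiers were scarce in the vessel wall. Kcnj8, which forms the vascular KATP channel with the sulfonylurea receptor Abcc9, was highest in mural-like nuclei at 65.6 (44.2-93.6), 8.37 (3.61-16.5), 5.56 (2.87-9.72) and 4.77 (1.92-9.83) CPM, from 30, 8, 12 and 7 counts. The untreated library stood above the other libraries without overlap of the intervals. Abcc9, itself a marker of this class, stood at 767, 77.4, 104 and 73.6 CPM in the same nuclei and followed the same order of untreated against the rest. The Kcnj8 level of the other libraries was near that of T or NK-like nuclei, at 9.46, 5.84, 6.02 and 4.67 CPM. Kcnj11, the other KATP pore, gave 17, 0, 14 and 10 counts over all nuclei. Kcnj2, the classical inward rectifier of endothelium and macrophages, stood at 16.4, 16.1, 16.6 and 19.0 CPM in endothelial-like nuclei and at 10.8, 15.1, 21.0 and 23.2 CPM in foamy macrophage-like nuclei. Kcnj3, a subunit of channels opened by G proteins, stood out in chromaffin or neuron-like nuclei at 73.4 and 399 CPM in the MTZ-after and MTZ-simultaneous libraries, with at most 2.01 CPM in T or NK-like nuclei.

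Of the two-pore leak channels, Kcnk13 (THIK-1) was the macrophage member. In foamy macrophage-like nuclei, macrophages with lipid-handling genes, it stood at 253 (237-270), 251 (240-261), 247 (218-278) and 302 (280-325) CPM. The untreated, high-fat and MTZ-after levels had overlapping intervals and the MTZ-simultaneous level was the highest. In the other macrophage-like nuclei it stood at 181, 221, 152 and 144 CPM. A Kcnk13 UMI was found in 37.3, 25.7, 23.0 and 35.4% of foamy macrophage-like nuclei, and in 8.62, 10.7, 11.9 and 12.7% after thinning to 500 UMIs. The corresponding unthinned shares in T or NK-like nuclei were 2.17, 13.2, 5.75 and 4.77%, at median depths of 1382.5, 888.5, 778 and 1167 UMIs against 2631, 1143, 1040 and 1610 UMIs in foamy macrophage-like nuclei.

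The gene lies on chromosome 12, plus strand, at 99964499-100062682 of GRCm38. The 250 bases before its start (RefSeq, GRCm38.p6) are shown because it was the member with the clearest macrophage level, together with those of Kcnmb1, the smooth muscle subunit described below, as a contrast between the cell types. Capitals mark GAGGAA, the purine-rich core bound by the myeloid factor PU.1, searched on both strands as GAGGAA or TTCCTC.
Kcnk13, chr12:99964249-99964498, plus strand: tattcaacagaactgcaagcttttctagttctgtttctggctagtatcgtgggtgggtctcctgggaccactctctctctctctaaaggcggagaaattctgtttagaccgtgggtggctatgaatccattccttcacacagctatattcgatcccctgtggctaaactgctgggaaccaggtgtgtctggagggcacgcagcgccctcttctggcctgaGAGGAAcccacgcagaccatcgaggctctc
Kcnmb1, chr11:33962763-33963012, plus strand: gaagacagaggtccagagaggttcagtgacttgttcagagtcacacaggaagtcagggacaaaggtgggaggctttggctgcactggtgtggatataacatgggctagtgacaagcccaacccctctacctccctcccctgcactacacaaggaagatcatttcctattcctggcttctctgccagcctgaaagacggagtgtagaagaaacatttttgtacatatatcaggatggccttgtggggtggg
The Kcnk13 window holds 1 match, whose first base lies 30 bases before the start, and the Kcnmb1 window holds none. The letters are common: 7639 of 32851 such windows of all genes (23.3%) and 23 of 93 windows of the 68 potassium channel genes found in the RefSeq table (24.7%) hold them. A match describes the sequence and is no evidence of binding.

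Other leak channels marked other tissues. Kcnk3 (TASK-1), known from adrenal cortex and brown fat, stood at 226, 141, 139.8 and 248 CPM in brown adipocyte-like nuclei and at 196 CPM in the adrenal cortex-like nuclei of the MTZ-after library. Kcnk9 (TASK-3), its partner in steroid-producing cells, stood at 77.3 CPM in those adrenal nuclei and at 0, 0, 6.02 and 0 CPM in T or NK-like nuclei. Kcnk5 (TASK-2) stood at 115, 93.3, 29.99 and 125 CPM in lymphatic endothelial-like nuclei and at 30.2 and 271 CPM in the hepatocyte-like nuclei of the MTZ-after and MTZ-simultaneous libraries. Kcnk6 (TWIK-2), another leak channel tied to macrophage inflammasome activation, was low at 19.7, 21.0, 12.8 and 19.8 CPM in foamy macrophage-like nuclei. Kcnk2 (TREK-1), a stretch-sensitive channel, was led by chromaffin or neuron-like nuclei, at 179 CPM in MTZ-after and 8.96 CPM, from 2 counts, in MTZ-simultaneous.

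Among channels opened by calcium or sodium, Kcnma1, the BK pore subunit, was a muscle gene and an adrenal gene. It stood at 954, 449, 723 and 696 CPM in smooth muscle-like nuclei and at 562, 374, 638 and 858 CPM in mural-like nuclei. The high-fat library was the lowest in both. Adrenal cortex-like nuclei of the MTZ-after library held 901 CPM (875-928), and chromaffin or neuron-like nuclei 549 and 466 CPM in MTZ-after and MTZ-simultaneous. A Kcnma1 UMI was found in 65.6, 53.8, 61.8 and 64.3% of smooth muscle-like nuclei and in 2.01, 6.17, 9.92 and 9.05% of T or NK-like nuclei, and in 37.3, 26.9, 27.6 and 26.6% of the former after thinning.

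Kcnn3 (SK3) and Kcnn4 (IK1), the calcium-activated pair of endothelium, were both present there. Kcnn3 stood at 76.2, 43.8, 57.9 and 89.8 CPM in endothelial-like nuclei and at 81.4, 74.6, 93.7 and 109 CPM in lymphatic endothelial-like nuclei. The high-fat library was lowest in both, but it held only 868 endothelial-like and 154 lymphatic endothelial-like nuclei. In that class Kcnn3 did not differ 2-fold with enough counts in any comparison made below. Kcnn4, which also serves immune cells, stood at 42.8, 41.6, 27.8 and 37.3 CPM in endothelial-like and at 31.3, 39.0, 40.2 and 31.9 CPM in foamy macrophage-like nuclei. T or NK-like nuclei held it at 38.7, 27.8, 26.1 and 57.6 CPM, so no class stood out. Kcnt2 (Slick), a channel opened by sodium, was high in endothelial-like nuclei at 1029, 1086, 1012 and 1227 CPM and in fibroblast-like nuclei at 1035, 763, 966 and 1119.9 CPM. It was also at 374, 462, 713 and 623 CPM in T or NK-like nuclei. Kcnn2 (SK2) was adrenal, at 289 CPM in the MTZ-after library.

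Among auxiliary subunits, Kcnab1, a beta subunit that speeds the closing of Shaker-type channels, was led by smooth muscle-like nuclei at 2723 (2612-2837), 1363 (1200.4-1540.5), 1537 (1439-1641) and 1394 (1349.7-1439.6) CPM. The untreated library stood alone and the other libraries had overlapping intervals. The gene was detected in 84.8, 74.2, 78.6 and 79.0% of these nuclei, and in 12.9, 11.8, 13.9 and 19.3% of T or NK-like nuclei. Kcnmb1, the BK beta subunit that raises calcium sensitivity in smooth muscle, gave only 13, 2, 6 and 34 counts there, or 15.6, 10.7, 10.2 and 12.7 CPM, with overlapping intervals. Kcnab2 was led by T or NK-like nuclei at 44.7, 26.3, 34.1 and 26.5 CPM, and Kcnip3, a calcium sensor for A-type channels, by fibroblast-like nuclei at 32.4, 14.8, 23.2 and 18.9 CPM. Kcnip4, another such sensor and the longest gene of the group, stood at 2117 and 5929 CPM in chromaffin or neuron-like nuclei of the MTZ-after and MTZ-simultaneous libraries and at 614, 198, 199 and 94.3 CPM in smooth muscle-like nuclei.

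**Figure D2:**
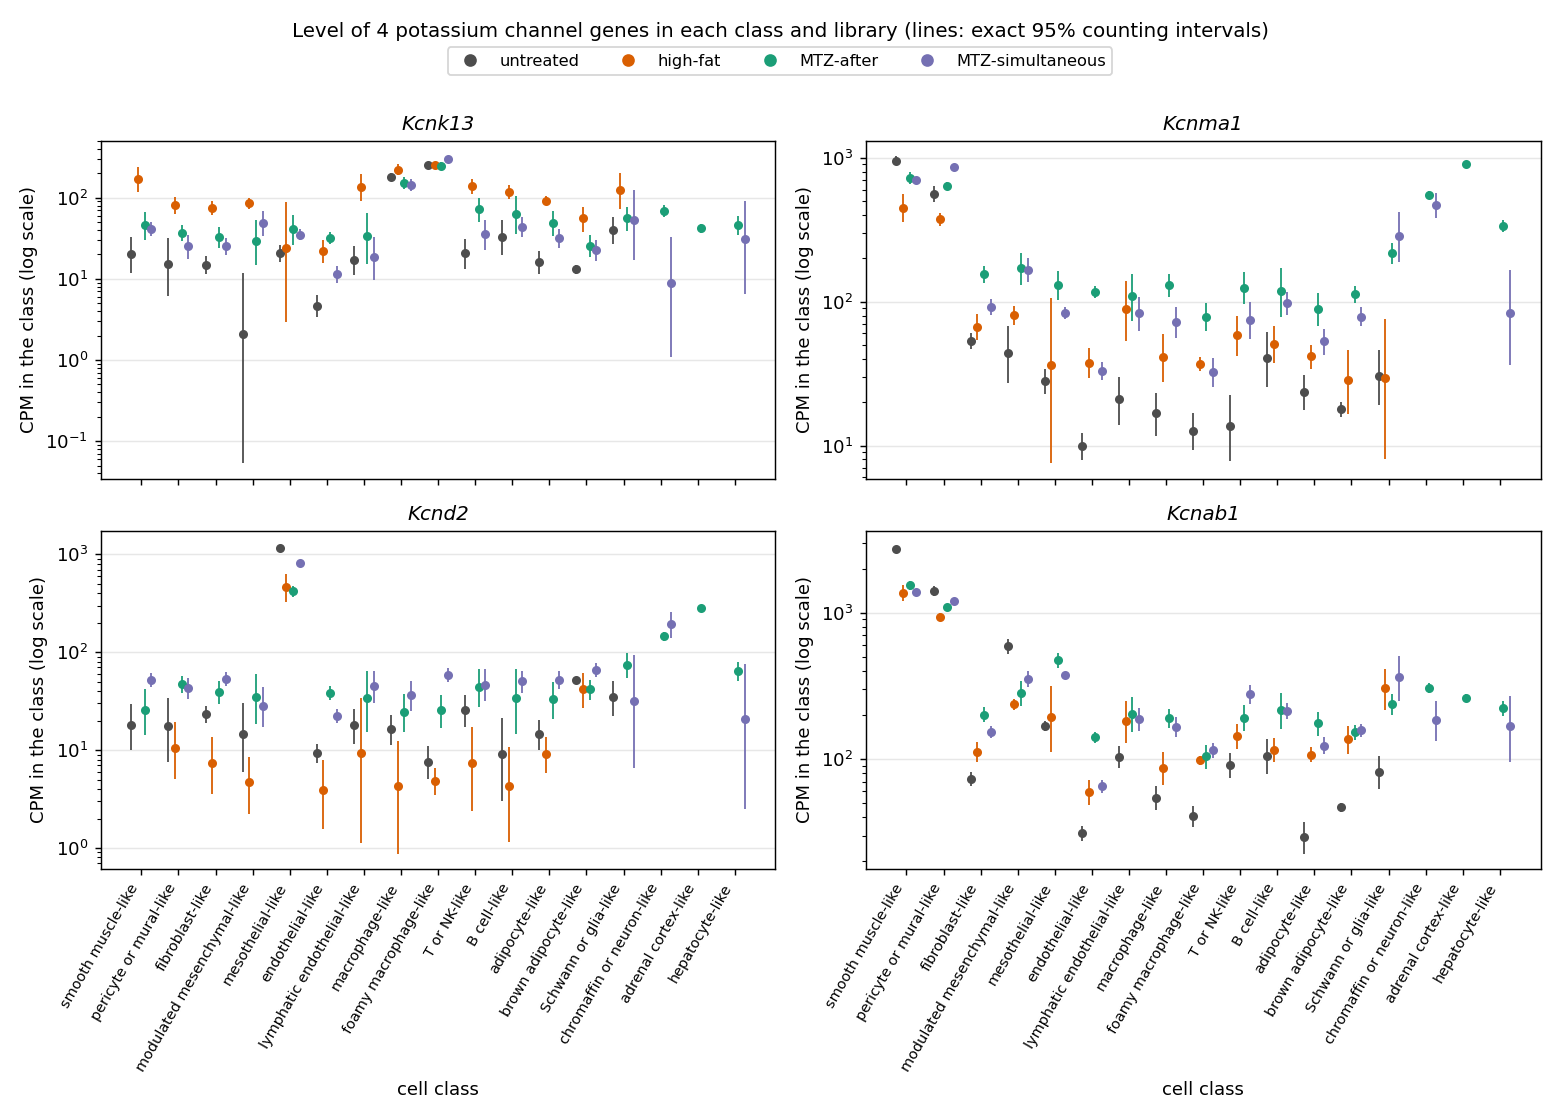
CPM of Kcnk13, Kcnma1, Kcnd2 and Kcnab1 on a log scale in each class (x axis) and library (colour), with exact 95% counting intervals; classes under 50 nuclei or with 0 counts have no point. The foamy macrophage-like points of Kcnk13 lie between 247 and 302 CPM, whereas its T or NK-like points span 20.6 to 139 CPM, highest in the high-fat library.

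Smooth muscle-like and mural-like nuclei were divided differently by each clustering. The high-fat library had 93 smooth muscle-like nuclei here and 510 to 758 under other clusterings, so the classes were also pooled, a choice made after seeing the data. The pool held 586, 1024, 2626 and 1850 nuclei. Its Kcnma1 level was 815 (767-866), 387 (351-424), 656 (626-687) and 754 CPM, and its Kcnab1 level 2258, 1002, 1192 and 1325 CPM. Against untreated, the high-fat ratio was 0.474 (0.423-0.530) for Kcnma1, 0.444 (0.414-0.475) for Kcnab1, 0.243 (0.212-0.278) for Kcnq5, 0.357 (0.263-0.480) for Kcnd3 and 0.169 (0.132-0.214) for Kcnip4. In the pool these genes were all lower in the high-fat library. Kcnt2 was higher, at 1.38 (1.22-1.56), and so was Kcnk13, at 5.14 (3.28-8.36).

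The 12 smooth muscle markers moved in the pool too, summing to 8406, 4192, 5166 and 8170.5 CPM, and 64.6, 16.4, 21.4 and 64.6% of the pool's UMIs came from smooth muscle-like nuclei. The 12 foamy macrophage markers summed to 1720.1, 4839, 2256 and 1903 CPM in these muscle and mural nuclei. The part of this makeup in the channel ratios was not tested. Against high-fat, Kcnma1 in the pool was 1.70 (1.53-1.89) in MTZ-after and 1.95 (1.76-2.16) in MTZ-simultaneous, and Kcnab1 1.19 (1.11-1.27) and 1.32 (1.24-1.41). Kcnd3 was 2.14 (1.62-2.87) and 1.5 (1.14-2.01), and Kcnip4 1.92 (1.51-2.48) and 1.02 (0.796-1.33). Both MTZ comparisons share the high-fat library, so a low or high value there enters both.

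**Figure D3:**
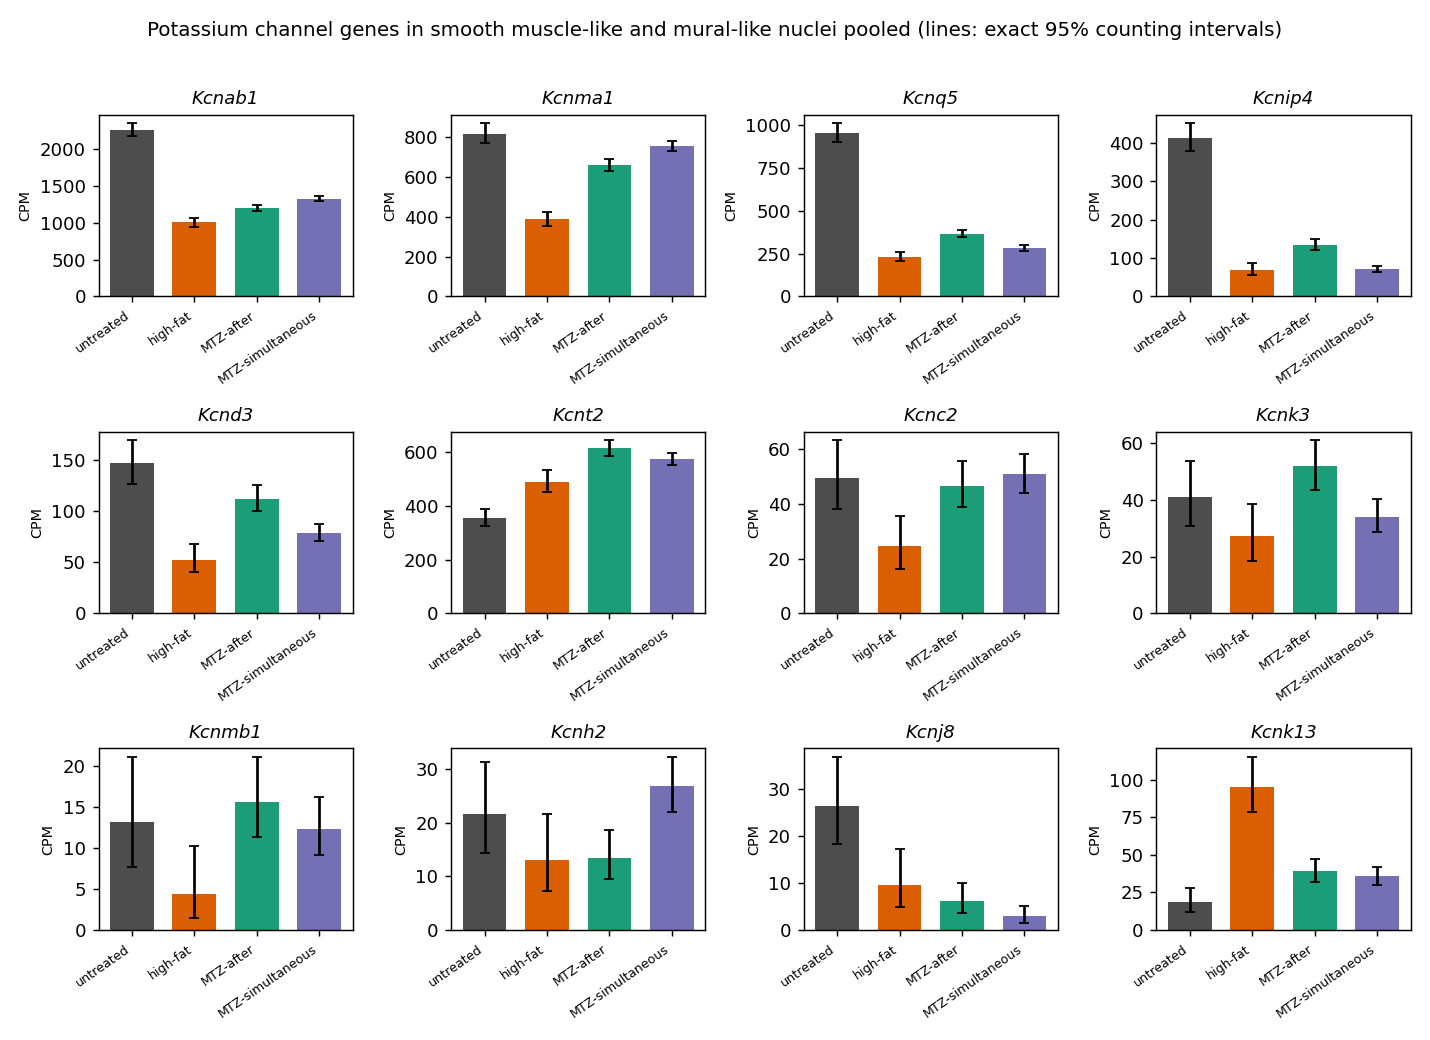
CPM of 12 potassium channel genes in the pooled smooth muscle-like and mural-like nuclei of each library (bars, from 0), with lines for exact 95% counting intervals. Kcnma1 and Kcnab1 are lowest in the high-fat library (387 and 1002 CPM), Kcnq5 is highest in the untreated library (956 CPM), and Kcnk13 is highest in the high-fat library.

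To compare libraries class by class, a gene was called when its CPM differed at least 2-fold and 50 or more counts lay in the higher of the libraries, in classes with at least 100 nuclei in both. In high-fat against untreated, 130 pairs of a gene and a class, from 31 potassium channel genes and 11 classes, had enough counts. Of these, 19 were higher and 19 lower (14.6% each), beside 4.8% and 4.02% of pairs over all features. The 19 lower pairs came from 12 genes, as did the 19 higher pairs. The foamy macrophage-like class gave 10 of the higher pairs among its 22 tested genes, beside 10.0% called higher over all features in that class.

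Levels in T or NK-like and B cell-like nuclei were set beside each call, since RNA free in the suspension can be counted in any class. Such a level cannot separate free RNA from expression by the lymphocytes themselves, as with Kcnq5, which B cell-like nuclei also carried. The lymphocyte check was added after the data were seen, and it was made for the potassium channel genes only. Its counts therefore have no share over all features beside them, here and in the comparisons below. None of the 17 higher pairs outside the lymphocytes reached 2-fold the higher lymphocyte level in the high-fat library. These pairs included Kcnma1 and Kcnab1, which were lower in the pooled muscle and mural nuclei. Kcnma1 was higher in endothelial-like (3.80, 2.72-5.28) and foamy macrophage-like nuclei (2.91, 2.14-4.04). Kcnab1 was higher in adipocyte-like, brown adipocyte-like and foamy macrophage-like nuclei, at ratios of 2.42 to 3.68. Kcnk13 was called higher in 5 classes, B cell-like, T or NK-like, adipocyte-like, fibroblast-like and mural-like, with ratios of 3.56 to 6.72. Neither macrophage class was among them, and its foamy macrophage-like levels had overlapping intervals (253 and 251 CPM). In T or NK-like nuclei, Kcnk13 went from 20.6 to 139 CPM beside the foamy markers St18, from 67.9 to 340.3 CPM, and Spp1, from 436 to 2363 CPM. Their part in the Kcnk13 ratios was not tested.

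Of the 17 lower pairs outside the lymphocytes, 8 stood at least 2-fold above the higher lymphocyte level in the untreated library. Kcnc2 was lower in endothelial-like nuclei, at 53.2 against 115 CPM (ratio 0.463, 0.371-0.571). The ratio was 0.638 with nuclei thinned to equal depth and 0.603 with each nucleus weighted equally, which ends the call. Endothelial-like nuclei came from different clusters in the libraries: 1 cluster supplied 53.6% in untreated and 35.5% in high-fat, and another 18.1% and 44.8%. The class held 868 high-fat nuclei here and 4757 to 5743 under the other clusterings. The part of this difference in the Kcnc2 ratio was not tested. Kcnq5 was lower in mural-like nuclei at 202 against 1654 CPM (0.122, 0.104-0.143), and Kcnd3 at 49.1 against 151 CPM (0.326, 0.220-0.479). Kcnq5 stayed between 0.0963 and 0.177 in every setting in which mural-like nuclei were compared, while Kcnd3 lost its call in 3 other clusterings (0.537 to 0.631) and with thinning (0.503). The receptor Abcc9 had a ratio of 0.101 and the cation channel Trpc6 a ratio of 0.0683 in these nuclei, and Abcc9 and Trpc6 are markers of the class. Kcna1 was lower in Schwann or glia-like nuclei with 6 against 89 counts (0.361, 0.129-0.818) and Kcna6 with 1 against 66 counts (0.0812, 0.00202-0.468). The 3 remaining pairs were Kcnip3 in fibroblast-like nuclei (0.459, 0.272-0.736), Kcnq1 in macrophage-like nuclei (0.468, 0.291-0.723) and Kcnj15, an inward rectifier, in adipocyte-like nuclei (0.423, 0.260-0.674). Kcnj15 turned to 1.09 with thinning and lost its call without doublet removal (0.588), Kcnip3 stood at 0.557 and 0.552 with resolution 1 and another seed, and Kcnq1 at 0.601 and 0.728 with resolution 1 and stricter filters. Fibroblast-like nuclei also differed in makeup, with 1 cluster supplying 47.7% in untreated and 3.94% in high-fat. Its part in the Kcnip3 ratio was not tested.

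Kcnk3 was called lower in 4 classes at ratios of 0.0957 to 0.346, Schwann or glia-like, T or NK-like, lymphatic endothelial-like and macrophage-like. In T or NK-like nuclei it was 80.8 CPM in untreated and 8.76 CPM in high-fat. The brown fat marker Ucp1 stood at 217 and 26.3 CPM in those nuclei, and brown adipocyte-like nuclei numbered 4366 and 553. In brown adipocyte-like nuclei themselves Kcnk3 stood at 226 and 141 CPM, but 1 cluster made up 71.4% of the untreated and 6.87% of the high-fat nuclei of this class.

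**Figure D4:**
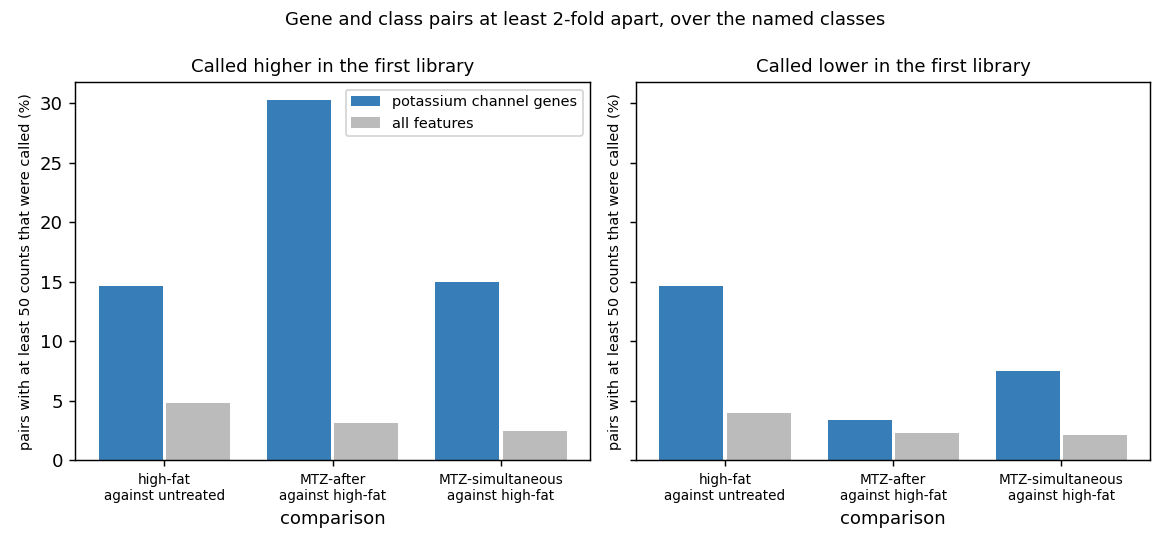
Share of gene and class pairs with at least 50 counts that were called higher (left) or lower (right) in the first-named library of each comparison, for the potassium channel genes (blue) and all features (grey), over the named classes; the 3 comparisons share the high-fat library. The largest gap is MTZ-after against high-fat, higher, with 30.3% against 3.17%.

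In MTZ-after against high-fat, 36 of 119 pairs over 12 classes were higher (30.3%) and 4 lower (3.36%), beside 3.17% and 2.3% over all features. The higher pairs came from 11 genes. Endothelial-like nuclei gave 10 of them among 19 tested genes, beside 9.34% higher and 1.04% lower over all features in that class. This class held 3919599 UMIs in MTZ-after and 1804416 in high-fat, where it had only 868 nuclei. Kcnma1 alone supplied 9 pairs, at ratios of 2.12 to 7.33, in Schwann or glia-like, T or NK-like, adipocyte-like, brown adipocyte-like, endothelial-like, fibroblast-like, foamy macrophage-like, macrophage-like and modulated mesenchymal-like nuclei. Mural-like nuclei were not among them, with Kcnma1 at 638 against 374 CPM, and smooth muscle-like nuclei were too few in the high-fat library to be compared. In T or NK-like nuclei it was 124 against 58.4 CPM, beside 211 against 129 CPM for the smooth muscle marker Myh11. The adrenal marker Cyp11b1 stood there at 20.1 against 0 CPM.

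Of the 35 higher pairs outside the lymphocytes, 3 stood at least 2-fold above the higher lymphocyte level. Among them was Kcnd3 in mural-like nuclei, at 111 against 49.1 CPM (2.26, 1.65-3.16). Kcnd3 lost its call with thinning (1.68) and in the 3 other clusterings that kept a mural-like class (1.25 to 1.45). Kcnc2 in endothelial-like nuclei was also higher, at 124 against 53.2 CPM (2.33, 1.87-2.93), but T or NK-like nuclei of that library held 62.2 CPM and the ratio was 1.3 with thinning and 1.63 with equal weight per nucleus. The cluster that held 61.8% of the MTZ-after endothelial-like nuclei held 14.3% in high-fat. In that class the foamy macrophage markers summed to 1982 and 1879 CPM, the smooth muscle markers to 716 and 927 CPM, and the 9 adrenal cortex markers to 28.3 and 162 CPM in high-fat and MTZ-after. The part of these levels in the ratios was not tested. Kcnn2, the adrenal SK channel, was called in endothelial-like nuclei with 78 against 2 counts and in mural-like nuclei with 60 against 0 counts, at 19.9 and 27.8 CPM in MTZ-after, beside 289 CPM in the adrenal nuclei of that library. All 4 lower pairs lay under 2-fold the higher lymphocyte level. They were Kcnk13 in fibroblast-like, modulated mesenchymal-like and mural-like nuclei and Kcns3 in foamy macrophage-like nuclei. The Kcns3 ratio was 0.498, with an interval of 0.0994-1.54 that covers both directions.

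In MTZ-simultaneous against high-fat, 18 of 120 pairs over 11 classes were higher (15.0%) and 9 lower (7.5%), beside 2.45% and 2.16% over all features. Of the 17 higher pairs outside the lymphocytes, 5 stood at least 2-fold above the higher lymphocyte level. In endothelial-like nuclei these were Kcnn3, at 89.8 against 43.8 CPM (2.05, 1.62-2.63), and Kcnc2, at 114 against 53.2 CPM (2.15, 1.73-2.69). In mural-like nuclei Kcnma1 stood at 858 against 374 CPM (2.29, 2.04-2.59). Another was Kcnj15 in adipocyte-like nuclei, at 28.7 against 10.7 CPM (2.68, 1.66-4.42). The high-fat library had 1969 adipocyte-like nuclei here and 32 to 3639 under the other clusterings. Its Kcnj15 level also enters the comparison with untreated, where the direction of this pair reversed with thinning. High-fat again had only 868 endothelial-like nuclei. The endothelial-like nuclei again came from different clusters: the one that supplied 51.4% in MTZ-simultaneous and 35.5% in high-fat has Kcnn3 among its leading genes, and another supplied 34.9% and 44.8%. The part of this makeup in the ratios was not tested. Myh11 stood at 2169 against 753 CPM in those mural-like nuclei, so the contractile marker and Kcnma1 were higher together. With thinning the ratios were below 2, at 1.57 for Kcnn3, 1.55 for Kcnc2 and 1.96 for Kcnma1, and Kcnma1 stood at 1.67 to 1.87 in the other clusterings.

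Kcnd2 was called in 6 classes at ratios of 4.11 to 12.1, and in no case at 2-fold the lymphocyte level. T or NK-like nuclei held it at 7.30 CPM in high-fat and 46.7 CPM in MTZ-simultaneous, beside 2.92 and 42.0 CPM for the mesothelial marker Muc16 and beside 70 and 2559 mesothelial-like nuclei. Kcnk13 was lower in 5 classes at ratios of 0.258 to 0.370, none of them a macrophage class. Kcnh1 and Kcnq1 were lower in foamy macrophage-like nuclei, at 0.295 (0.0776-0.802, 4 against 53 counts) and 0.426 (0.258-0.670). None of the 7 lower pairs outside the lymphocytes reached 2-fold the higher lymphocyte level in the high-fat library. There Kcnh1 stood at 5.83 CPM in foamy macrophage-like nuclei against 10.6 CPM in lymphocytes, and Kcnq1 at 21.2 against 26.3 CPM.

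Many of the potassium channel genes are long, and long genes gave most of the tested pairs and most of the higher calls in the MTZ comparisons. The span of the 93 genes had a median of 32016 bases and reached 1135406 bases (Kcnip4). Over the 67 genes with 50 counts, span and total count had a Spearman correlation of 0.491, given as a description across genes that share libraries. In MTZ-after against high-fat, genes of at least 100 kb supplied 81 of the 119 tested pairs and 31 of the 36 higher pairs. The higher share was 38.3% of the 81, beside 5.4% over all features of that span. Genes of 20 to 100 kb supplied 5 higher pairs, 17.2% of 29 beside 2.31%, and all 4 lower pairs, 13.8% beside 1.86%. In MTZ-simultaneous, genes of at least 100 kb supplied 16 of 18 higher pairs, 20.8% of 77 beside 2.74%. Genes of 20 to 100 kb supplied 2, 5.88% of 34 beside 1.79%. The sources used here do not say whether reads in introns were counted.

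Genes that work beside the channels were counted the same way, and each count below is read as higher and lower beside the shares over all features, which were 4.8% and 4.02% in high-fat against untreated, 3.17% and 2.3% in MTZ-after and 2.45% and 2.16% in MTZ-simultaneous. Of calcium entry and release genes, such as the L-type calcium channel Cacna1c, 14 pairs were higher and 9 lower of 139 in high-fat against untreated, 19 and 2 of 141 in MTZ-after against high-fat, and 10 and 0 of 144 in MTZ-simultaneous against high-fat. As shares these were 10.1% and 6.47%, 13.5% and 1.42%, and 6.94% and 0%. In mural-like nuclei Cacna1c had a ratio of 0.292 in high-fat against untreated and 2.97 in MTZ-simultaneous against high-fat, where Kcnma1 was 2.29. Vasodilator signalling genes gave 7 higher and 10 lower of 86, 8 and 1 of 89, and 8 and 3 of 87 in the same order, or 8.14% and 11.6%, 8.99% and 1.12%, and 9.2% and 3.45%. The guanylate cyclase subunits Gucy1a1 and Gucy1b1, which respond to nitric oxide, had ratios of 0.270 and 0.194 in mural-like nuclei in high-fat against untreated. Pumps, gap junction and other membrane potential genes gave 13 and 11 of 99 (13.1% and 11.1%), 5 and 2 of 94 (5.32% and 2.13%), and 6 and 7 of 96 (6.25% and 7.29%). Auxiliary and regulatory partners gave 4 and 4 of 47 (8.51% each), 1 and 0 of 45 (2.22% and 0%), and 0 and 2 of 43 (0% and 4.65%).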

How the data were processed

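The authors deposited 1 filtered matrix of whole-number UMI counts per library. Per the file headers these were made with Cell Ranger 7.0.1, and per the submitters' processing notes with STAR and mm10. Libraries were built with a 10x 3' kit from nuclei, per the labels' protocols.

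Nuclei with at least 300 genes and at most 10% mitochondrial counts were kept, and the 8% with the highest Scrublet scores were removed per library, with ties kept. This left 20772, 35100, 26009 and 17844 nuclei. Counts were scaled to 10000 per nucleus, log-transformed and, without any Kcn gene, reduced to 2000 variable genes and 30 components. Scaling of the genes before the components was added after unscaled clustering had merged T, B and monocyte nuclei. Clusters (20 neighbours, Leiden resolution 2; scanpy 1.11.5, leidenalg 0.10.2) were named when at least 3 markers were detected in 5% of nuclei and enriched 2-fold. Clusters with markers of unrelated classes stayed unnamed.

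Within each class and library, raw counts were added up and expressed as CPM. A call needed a 2-fold difference and 50 counts in the library with the higher level, with 0 counts set at a floor of 3 counts. The library with more UMIs in a class reaches 50 counts more easily, so the direction of calls in a class can follow its UMI totals. The interval was not part of the call, so the interval of a called pair can cover both directions. No test was run, because each group had 1 library. Intervals are exact Poisson, Clopper-Pearson or conditional intervals (scipy 1.17.1). They cover counting error only. Named genes were those leading a class by mean CPM with at least 50 counts (up to 6 per class, in order of the ratio to the next class), called genes whose level was at least 25% of that in the best class (up to 4 per class and direction), and a list of vascular channels. Some genes that the rule names are not reported here. Other called genes and examples from the related lists were chosen after their values were seen. The members and lists were chosen with earlier results of these data known. Positions came from GENCODE vM21, which held all 93 members and 32235 of 32285 identifiers. On simulated endothelial counts (9449 genes, high-fat against untreated), 91% of 200 genes changed 4-fold and 0.119% of unchanged genes were called. The simulation held counting error only and covered this large class alone. Its shares are therefore no error rate for the calls above, which also hold differences between libraries.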

Additional observations from a re-analysis of the deposited data

How the results depend on the processing

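Calls were recounted under 9 planned settings and 1 added after seeing the data. Listed as higher and lower, edgeR's TMM factors gave 17 and 21 in high-fat against untreated, 35 and 4 in MTZ-after, and 18 and 9 in MTZ-simultaneous, both against high-fat. Equal weight per nucleus gave 14 and 20, 34 and 5, and 16 and 8. Pooling smooth muscle and mural nuclei gave 19 and 25, 36 and 4, and 20 and 9. A minimum of 20 counts gave 35 and 34, 72 and 8, and 35 and 18, and no minimum 117 and 70, 196 and 35, and 98 and 56. Thinning to 500 UMIs gave 4 and 2, 16 and 1, and 2 and 2, where by construction fewer pairs reach 50 counts. Resolution 1 gave 29 higher in high-fat against untreated. Another seed gave 30 lower there and 34 higher in MTZ-simultaneous. Without doublet removal MTZ-simultaneous had 28 higher. Stricter nucleus filters gave 40 higher in high-fat, 8 lower in MTZ-after and 31 higher in MTZ-simultaneous. Under the 4 other clusterings 7 to 13 of the 19 higher pairs in high-fat, 21 to 26 of the 36 in MTZ-after and 11 to 14 of the 18 in MTZ-simultaneous recurred. The cause was not tested. In 3 ratios the side of 1 changed: Kcnc2 in mural nuclei without doublet removal (MTZ-simultaneous, 0.708), and with thinning Kcnj15 in adipocytes (high-fat, 1.09) and Kcnh1 in foamy macrophages (high-fat, 0.981). Of the other values 436 stayed within their counting interval and 48 did not. The leading class of 36 genes stayed for 26 with thinning, 27 to 30 under the other clusterings, 32 with equal weight and 36 with TMM. No paired analysis was possible because each group had 1 library. Depth limits the scarce genes: Kcna3, Kcna5 and Kcnj11 were too rare for any ratio.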
